A study of Mus musculus with 4 samples.

Results

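Microglia are the resident macrophages of the central nervous system, and the gut wall holds a large macrophage population of its own. The 10 genes described here are commonly used to mark these cells: the fractalkine receptor Cx3cr1, the purinergic receptor P2ry12, the membrane protein Tmem119, the calcium-binding protein Aif1 (IBA1), the colony-stimulating factor receptor Csf1r, the integrin chain Itgam (CD11b), the 3 chains of the complement component C1q (C1qa, C1qb and C1qc) and the lipid-sensing receptor Trem2. They were taken by name out of 20144 genes with a symbol among 32585 genes or identifiers on the array.

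The arrays came from male mice aged 20 weeks, either IP6K2-KO or their WT littermates, which had 1 week of the purified iVid-neo diet after the standard CE-2 diet and then a 48 h fast. IP6K2 is a kinase that makes inositol pyrophosphates, and per the methods of the study the KO allele lacks the exon that encodes the kinase domain. Whole spinal cord and whole duodenum RNA were each labelled with Cy3 and hybridised to a 1-colour Agilent array, with 1 array for each genotype and tissue and therefore 4 arrays in all. No group had a replicate, so no difference below has a test, and every error given is the spread of spots on an array, with no part from mouse to mouse.

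The targeted gene was examined first. The Ip6k2 probe had signals of 452 on the WT and 1320 on the KO spinal cord array, and of 139 and 572 on the WT and KO duodenum arrays. After scaling, Ip6k2 was 1.45 higher on the log2 scale on the spinal cord array labelled IP6K2-KO than on the WT array, and differed by -0.21 in the duodenum. The spinal cord value goes against the label. A probe outside the deleted exon would check nothing, and the sources used here do not say whether this one lies inside it, so each direction below is that of the array labelled IP6K2-KO. The duodenum arrays were dimmer, with a 75th percentile of signal of 68.0 for WT and 323 for KO against 905 and 971 in the spinal cord, and 51.6% and 66.3% of probes stood well above background in the duodenum against 76.8% and 77.4%. Most tissue markers went with the labels. All 4 epithelial markers were at least 2-fold higher on the duodenum array than on the spinal cord array of each genotype. All 4 neuronal markers were at least 2-fold lower there. Of 4 astrocyte markers 3 were at least 2-fold lower in each genotype, but Aldh1l1 was higher, at 1.12 for WT and 1.56 for KO. Of 4 oligodendrocyte markers 3 were at least 2-fold lower, and Mbp was at 0.17 and 0.70.

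These genes share a regulatory background that is well known. PU.1 (Spi1), the transcription factor that myeloid cells depend on, binds sequences with a GAGGAA core, and CSF1R signalling, through the ligands Csf1 and Il34, keeps microglia and most tissue macrophages alive. TREM2 and several other receptors of these cells signal through the adaptor TYROBP, whereas C1q starts the classical complement cascade and tags synapses and debris for uptake. Tmem119 and P2ry12 are treated as microglial in the nervous system, while Cx3cr1, Csf1r, Itgam and C1q are shared with other macrophages or monocytes.

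RefSeq promoter windows (GRCm38.p6) were available for 7 of the 10 genes. The 250 bases before the start held GAGGAA on either strand in 5 of the 7 (Aif1, Itgam, C1qb, C1qc and Trem2), against 23.3% of all 32851 windows of this length. The windows of Trem2, C1qb and Itgam are shown because they hold the match and behave differently below, and that of Cx3cr1 because it holds none and Cx3cr1 was the member that was higher in the KO-labelled duodenum. Capitals mark GAGGAA, or TTCCTC where the match is on the other strand. The match began 40 bases before the start in Trem2 and 30 in C1qb, and Itgam had 1 on each strand, at 84 and 15 bases. A match is a description of letters and not of binding.
Trem2, chr17:48346151-48346400, plus strand: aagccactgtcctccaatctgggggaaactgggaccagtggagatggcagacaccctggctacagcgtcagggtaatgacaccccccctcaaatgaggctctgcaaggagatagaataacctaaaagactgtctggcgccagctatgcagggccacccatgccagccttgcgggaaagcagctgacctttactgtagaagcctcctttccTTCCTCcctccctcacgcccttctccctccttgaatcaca
C1qb, chr4:136886201-136886450, minus strand: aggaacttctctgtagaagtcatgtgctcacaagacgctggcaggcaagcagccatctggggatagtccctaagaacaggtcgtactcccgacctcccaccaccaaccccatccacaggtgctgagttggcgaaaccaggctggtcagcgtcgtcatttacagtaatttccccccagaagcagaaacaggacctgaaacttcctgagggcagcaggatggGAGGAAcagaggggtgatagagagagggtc
Itgam, chr7:128062390-128062639, plus strand: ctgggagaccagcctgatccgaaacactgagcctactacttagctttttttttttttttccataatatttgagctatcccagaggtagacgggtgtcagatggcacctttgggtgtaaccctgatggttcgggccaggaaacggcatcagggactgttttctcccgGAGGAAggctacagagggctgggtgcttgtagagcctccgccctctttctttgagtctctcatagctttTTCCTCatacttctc
Cx3cr1, chr9:120068297-120068546, minus strand: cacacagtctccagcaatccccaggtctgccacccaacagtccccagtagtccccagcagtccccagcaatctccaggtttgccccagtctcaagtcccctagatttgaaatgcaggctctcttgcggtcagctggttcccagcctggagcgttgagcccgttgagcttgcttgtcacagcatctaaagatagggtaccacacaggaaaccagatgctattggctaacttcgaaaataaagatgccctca

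All levels below are the log2 signal minus the 75th percentile of the same array, so that 0 is the level of a probe at that percentile. A gene with several probes is given by its brightest one, and no probe's level is set against that of another. Of the 10 genes, 9 stood well above background on all 4 arrays, and P2ry12 did so on 3. In whole tissue, fewer cells of a type and less RNA per cell cannot be told apart.

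**Figure D1:**
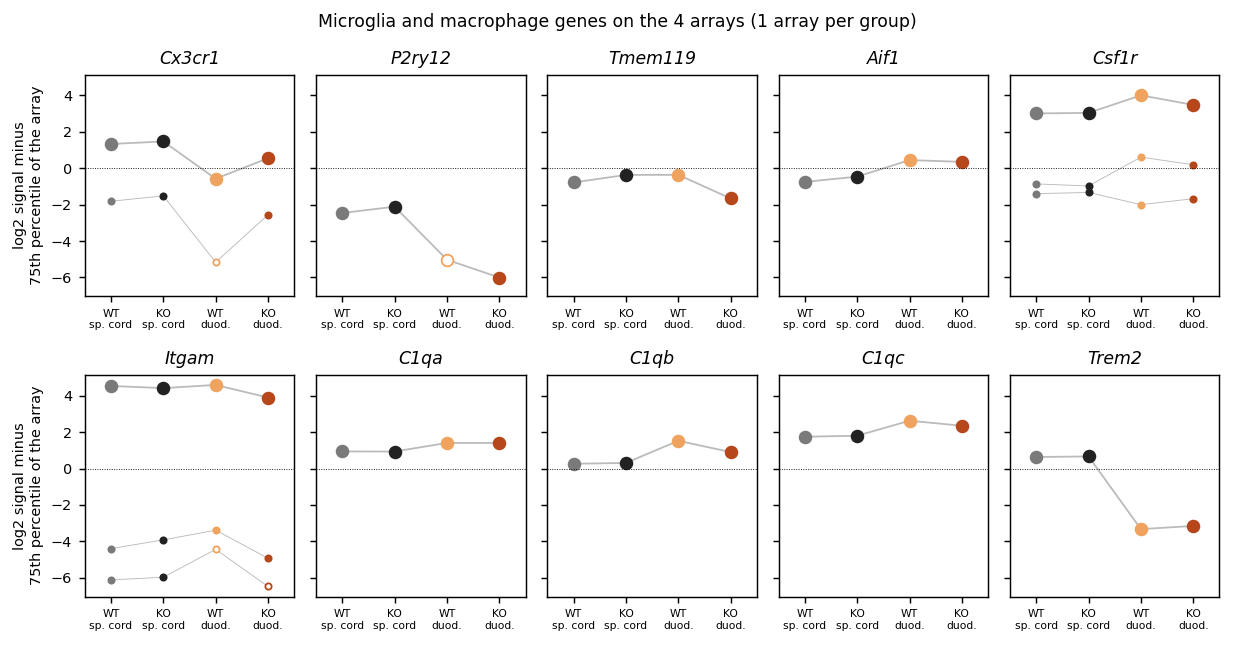
Level of each gene (y axis, log2 signal minus the 75th percentile of the array) on the WT and KO arrays of spinal cord and duodenum (x axis, 1 array each). Large points are the brightest probe of a gene, small points its other probes, and open points are not well above background; the spinal cord pairs lie close together, while Trem2 and P2ry12 drop between spinal cord and duodenum.

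In the spinal cord, the microglia and macrophage genes were nearly level between the 2 genotype labels. None of the 10 was 2-fold apart, against 2.28% of all 25222 measured genes at least 2-fold higher and 0.864% at least 2-fold lower on the KO-labelled array. Their differences ran from -0.12 to 0.42 with a median of 0.05, and the median of all genes was -0.04. The technical SD of such a difference, taken from probes of like brightness printed at 10 spots on each array, was 0.058 (median over the 10 genes).

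Tmem119 had the largest spinal cord difference. Its level was -0.78 on the WT and -0.37 on the KO-labelled array, a difference of 0.42 ± 0.062 (technical SD). P2ry12 stood at -2.46 and -2.11, which is 0.35 higher on the KO-labelled array. Aif1, an actin-bundling protein of microglia and macrophages, stood at -0.75 and -0.46, or 0.29 higher. Each of these 3 differences exceeded its technical SD of 0.062 to 0.073, and the largest was 1.33-fold. Under model-based (normexp) background correction with all local backgrounds kept, Tmem119 was at 0.22, P2ry12 at -0.55 and Aif1 at -0.03. The median of all genes was -0.45 there, so the signs of P2ry12 and Aif1 depended on the processing.

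The receptors Cx3cr1, Csf1r and Trem2 differed less. Cx3cr1 was at 1.33 on the WT and 1.47 on the KO-labelled array, and Csf1r was at 3.01 and 3.04. Trem2 was at 0.63 and 0.66. Each of these genes was thus within 0.14 of its WT value, although a dimmer Cx3cr1 probe was 0.29 higher.

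On this scale the complement chains were the flattest group. C1qa was at 0.94 on the WT and 0.93 on the KO-labelled array, and C1qb at 0.26 and 0.31. C1qc, the one member printed at 10 spots, averaged 1.75 ± 0.029 (SD over 8 unflagged spots) on the WT array and 1.80 ± 0.048 (9 spots) on the KO-labelled array. The spots of the 2 arrays overlapped, and the difference of 0.06 had an SE over spots of 0.019. Under normexp with all local backgrounds kept, C1qa was at 0.19, C1qb at 0.06 and C1qc at 0.30. The median of all genes was -0.45 there, so the flatness relative to other genes depended on the processing.

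The probes of Itgam disagreed. The brightest, which stands for the gene here and whose specificity was not examined, had a signal of 21005 on the WT array. It was at 4.54 on the WT and 4.42 on the KO-labelled spinal cord array, a difference of -0.12. Another probe, with signals of 42.9 and 64.1, was 0.48 ± 0.11 (technical SD) higher, and the dimmest was at 0.15 ± 0.20. The sign of the Itgam difference in the spinal cord therefore depends on the probe.

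**Figure D2:**
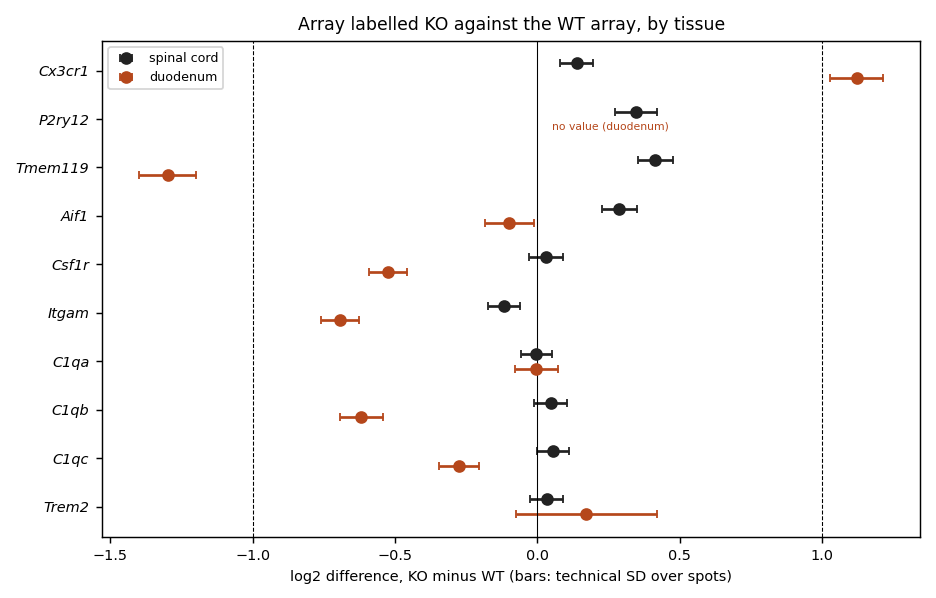
Difference between the KO-labelled and the WT array (x axis, log2) for each gene (y axis) in the spinal cord (black) and the duodenum (brown). Bars are the technical SD of the difference, and dashed lines mark 2-fold. In the spinal cord every gene lies between -0.12 and 0.42, whereas in the duodenum Cx3cr1 lies at 1.12 and Tmem119 at -1.30.

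The genes of other macrophages and of blood leukocytes were not level in the same comparison. Of the 19 other macrophage genes on the array, 8 were at least 2-fold higher on the KO-labelled spinal cord array and none was 2-fold lower, with a median of 0.67. The 8 were the mannose receptor Mrc1, lysozyme Lyz2, the chemokine Pf4, Cbr2, the transglutaminase chain F13a1, Ms4a7, the folate receptor Folr2 and the phosphatidylserine receptor Timd4, and they were named after their values were seen. Several of these are known as genes of macrophages at the borders of the nervous system, and Lyz2 and F13a1 also of monocytes. This difference depended on the background correction: the median of the list was 0.50 to 0.65 under the other scalings, 0.29 with 3 genes 2-fold higher after model-based (normexp) background correction with flagged local backgrounds replaced, and -0.84 with 1 higher and 7 lower under normexp with all local backgrounds kept. The WT spinal cord array holds a local background of 15708, against at most 47 on the other arrays.

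Pf4, a chemokine of platelets and border macrophages, had signals of 340 on the WT and 1011 on the KO-labelled spinal cord array, a difference of 1.47. F13a1 had signals of 304 and 879, a difference of 1.43. At the other end of this list, the engulfment receptor Mertk was at -0.16 and the lipopolysaccharide co-receptor Cd14 at 0.01. Timd4 was not well above background on the WT array and was higher by at least 2.18 on the log2 scale. Folr2 was dim, with signals of 5.27 on the WT and 13.1 on the KO-labelled array.

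Of the 18 other microglia genes none was 2-fold apart, and their median was 0.02. Under normexp with all local backgrounds kept, 3 were at least 2-fold lower and the median was -0.26, and with flagged backgrounds replaced none was and it was 0.03. The highest were Fcrls, at 0.61, and the selectin ligand Selplg, at 0.60, and the lowest were Siglech, at -0.25, and the fructose transporter Slc2a5, at -0.21. The genes of activated microglia and of lipid-handling macrophages had a median of 0.04, with 1 of 17 at least 2-fold higher, the chemokine Ccl6 at 1.11. Under normexp with all local backgrounds kept 6 of the 17 were at least 2-fold lower. Cd9 was next, at 0.86, and the chemokines Ccl3 and Ccl4 were lowest, at -0.38 and -0.30.

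The partners of the member receptors lay between these groups. Of 22 genes, 1 was at least 2-fold higher on the KO-labelled spinal cord array, the C1 inhibitor Serping1 at 1.30, and none was 2-fold lower. Their median was 0.35. Under normexp with all local backgrounds kept none was 2-fold higher, 6 were at least 2-fold lower and the median was -0.22, and with flagged backgrounds replaced it was 0.23. The transcription factors Spi1 and Irf8 differed by 0.93 and 0.72, and Spi1 was dim, with signals of 12.1 on the WT and 24.9 on the KO-labelled array. The adaptors Tyrobp and Hcst differed by 0.65 and 0.57, the kinase Syk by 0.74, and Itgb2, the integrin chain that pairs with CD11b, by 0.58. The ligands of CSF1R differed little, with Csf1 at -0.20 and Il34 at 0.04, and the fractalkine ligand Cx3cl1 was at 0.10.

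The C1q partners C1ra and C1s1, the proteases that C1q activates, were 0.81 and 0.60 higher. The C1q chains themselves were within 0.06 on the same scale. The complement proteins C2, C3 and C4b differed by 0.51, 0.26 and -0.07. The receptor C3ar1 was the lowest of the list, at -0.51, and C5ar1 was at 0.34. Apoe was at -0.02, Cebpa at 0.23, Runx1 at 0.33 and Plcg2 at 0.35.

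Blood and marrow genes were also higher. Of 14 monocyte and neutrophil genes, 8 were at least 2-fold higher on the KO-labelled spinal cord array, with a median of 1.08. The chemokine receptor Ccr2 was highest at 2.44, on dim signals of 5.76 for WT and 33.6 for KO. The peroxidase Mpo was next at 1.69. The lowest were Csf3r, at -0.06, and the protease Mmp9, at 0.60. Under normexp with all local backgrounds kept, where the macrophage median was -0.84, the monocyte and neutrophil median was 0.97 and the red cell median 1.30. The level summed over the monocyte and neutrophil list, in units of the array's 75th percentile, was 116 on the WT and 169 on the KO-labelled array. All 14 genes, S100a8, S100a9 and Mpo among them, stood well above background on both spinal cord arrays, so none of these markers was absent.

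Of 7 red cell genes, 5 were at least 2-fold higher there, with a median of 1.21, and the summed level was 228 on the WT and 351 on the KO-labelled array. The anion exchanger Slc4a1 was at 1.54, and the lowest were the globin genes Hba-a2, at 0.36, and Hba-a1, at 0.89. Lymphocyte genes had a median of 0.96 with 6 of 15 at least 2-fold higher, including Ms4a1 at 2.20 and Gzma at 2.13, while Cd3e and Cd4 were at -0.42 and -0.23. Under normexp with all local backgrounds kept, the lymphocyte median was -0.998, and with flagged backgrounds replaced it was 0.25 with 1 gene at least 2-fold higher. All 15 leukocyte genes shared by many immune cells were above 0 and 4 were at least 2-fold higher, with a median of 0.58, from Fcgr3 at 0.12 and Lcp1 at 0.36 to Rac2 at 1.06 and Cybb at 1.43. Under normexp this median was -0.15 with all local backgrounds kept and 0.42 with flagged ones replaced, and no gene was 2-fold higher in either. Of the dendritic and mast cell genes 2 of 14 were at least 2-fold higher, with a median of 0.06 over the 6 measured on both arrays, and under normexp no gene of this list was 2-fold higher and the median was -1.25 with all local backgrounds kept and 0.04 with flagged ones replaced. The 6 ran from Ccr7, at -0.00, and the mast cell receptor Kit, at 0.03, to the mast cell proteases Tpsb2, at 0.20, and Cpa3, at 1.05. The part of these cells in the macrophage values was not tested.

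**Figure D3:**
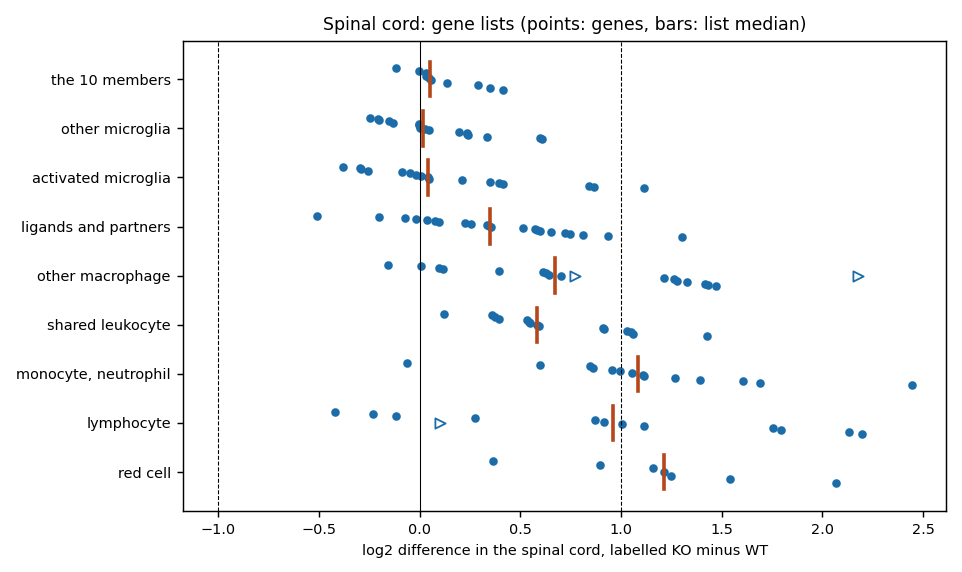
Difference between the KO-labelled and the WT spinal cord array (x axis, log2) for every measured gene of 9 gene lists (y axis), with the list median as a vertical bar, 2-fold as dashed lines and open triangles for differences of at least that size. The members and the other microglia genes centre on 0.05 and 0.02, and the monocyte, lymphocyte and red cell lists on 1.08, 0.96 and 1.21.

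In the duodenum, 1 of the 9 genes with a value was at least 2-fold higher on the KO-labelled array and 1 at least 2-fold lower, against 7.2% and 11.9% of all 21435 measured genes. The differences ran from -1.30 to 1.12, with a median of -0.28 against -0.11 for all genes. The technical SD was 0.067 to 0.25, larger than in the spinal cord, and the duodenum signals were lower.

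Cx3cr1 was the gene that was higher. Its brightest probe had signals of 45.7 on the WT and 472 on the KO-labelled duodenum array, which after scaling were levels of -0.57 and 0.55 and a difference of 1.12 ± 0.094 (technical SD), or 2.18-fold. The other Cx3cr1 probe was not well above background on the WT array, at a signal of 1.90, and had a signal of 54.8 on the KO-labelled array, at least 2.69-fold higher. Both probes therefore placed Cx3cr1 higher on the KO-labelled array. Under both normexp settings the difference of the gene was 0.77, below 2-fold. The fractalkine ligand Cx3cl1 was at -0.68 there.

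Tmem119 was the gene that was lower. Its level was -0.36 on the WT and -1.66 on the KO-labelled duodenum array, a difference of -1.30 ± 0.10 (technical SD), or 2.46-fold lower. In the spinal cord, Tmem119 had differed the other way by 0.42, so its sign was opposite in the 2 tissues. Tmem119 is also made by bone-forming and other stromal cells, and these arrays do not separate its sources.

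The C1q chains did not move as a group. C1qa was at 1.41 on the WT and 1.40 on the KO-labelled array. C1qb was at 1.52 and 0.91, a difference of -0.62 ± 0.076 (technical SD), and C1qc averaged 2.63 ± 0.040 and 2.35 ± 0.033 (SD over 8 unflagged spots on each array). The C1qc spots of the 2 arrays did not overlap, and the difference of -0.28 had an SE over spots of 0.018. Under both normexp settings C1qc was at 0.22, so its sign depended on the processing. The 3 genes are neighbours on the genome and their proteins are made into 1 complex, yet the spread between their differences, from -0.62 to -0.00, exceeded the technical SD.

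Csf1r and Itgam were lower by their brightest probes. Csf1r was at 4.01 on the WT and 3.48 on the KO-labelled array, a difference of -0.52, while its other probes were at -0.42 and 0.32. Under both normexp settings Csf1r was at 0.05. Itgam was at 4.59 and 3.90, a difference of -0.69 by the probe whose specificity was not examined, and a second probe with signals of 6.49 and 10.6 was at -1.54 ± 0.30 (technical SD). The 2 Itgam probes with a value agreed in sign, and the Csf1r probes did not.

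Aif1 and Trem2 were close to their technical spread. Aif1 was at 0.45 on the WT and 0.35 on the KO-labelled array, a difference of -0.10 ± 0.088 (technical SD). Trem2, with signals of only 6.77 and 36.2, was at -3.33 and -3.16, a difference of 0.17 ± 0.25, and under both normexp settings it was at -1.07. P2ry12 gave no value, since its signal of 2.08 on the WT array was not well above background and its signal of 5.02 on the KO-labelled array, after scaling, lay under what the WT array could show.

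**Figure D4:**
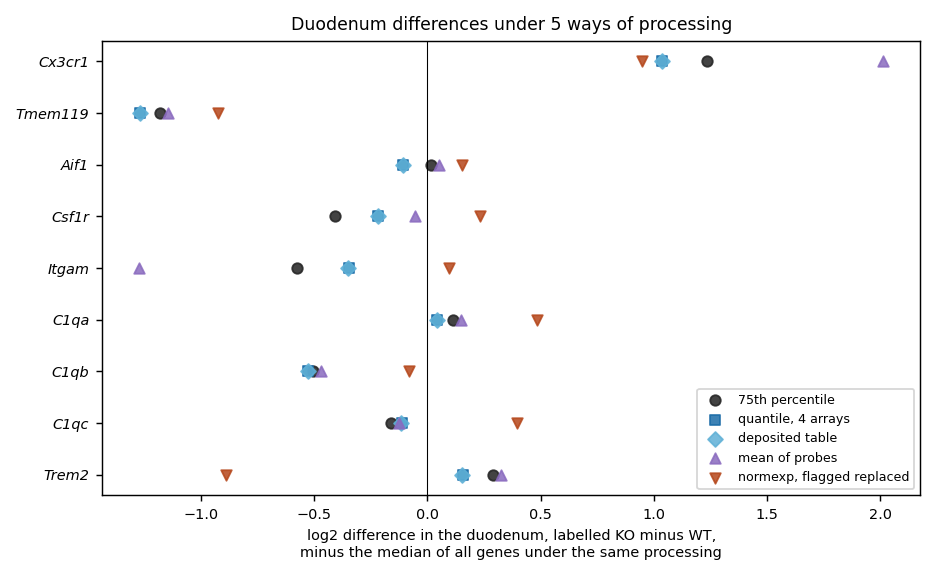
Difference between the KO-labelled and the WT duodenum array, minus the median of all genes under the same processing (x axis, log2), for the 9 genes with a value (y axis) under 5 ways of processing (symbols). Cx3cr1 lies right of 0 and Tmem119 and C1qb left of it under all 5, while Aif1, Csf1r, Itgam, C1qc and Trem2 change side.

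Among the partners in the duodenum, 1 of 22 was at least 2-fold higher on the KO-labelled array and 4 at least 2-fold lower. The shares of all genes were 7.2% and 11.9%, and the median of the partners was -0.22. The partner that was higher was C1s1, at 1.14. The lower ones were the transcription factor Runx1 at -1.70, the CSF1R ligand Il34 at -1.12, and Hcst and C4b, both at -1.08. The other ligand, Csf1, was at 0.24. Under both normexp settings none of the 22 partners was at least 2-fold higher, 1 was at least 2-fold lower and the median was -0.03.

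Receptor partners and complement genes were spread on both sides. Tyrobp was at -0.77, Itgb2 at 0.40, Syk at 0.30 and Plcg2 at -0.41. C1ra was at 0.17, C2 at -0.07, C3 at -0.28, Serping1 at 0.04 and Apoe at 0.17. Irf8 was at -0.22 and Cebpa at -0.76, and C3ar1 was higher by at least 0.55. Spi1 and C5ar1 gave no value.

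Of 19 other macrophage genes in the duodenum, 1 was at least 2-fold higher, Mertk at 3.99-fold, and 2 were at least 2-fold lower, Pf4 at -1.13 and the transcription factor Maf at -1.04. Their median was -0.29, and the next highest was Lyve1, at 0.51. Under both normexp settings 1 of these genes was at least 2-fold higher, none was 2-fold lower and the median was -0.50. Other microglia genes had a median of -0.08 and 1 of 18 was at least 2-fold lower, the leukotriene synthase Ltc4s at -1.19. Vsir and Entpd1 were their highest, at 0.40 and 0.16, and Tgfbr1 was at -0.60. Under both normexp settings 2 of the 18 were at least 2-fold lower, with a median of -0.04. Of 17 activated microglia and lipid-handling genes 1 was at least 2-fold higher and 1 at least 2-fold lower, with a median of 0.23. The lipase Lpl was highest, at 1.60, followed by Cd63 at 0.86, and Lgals3 and Ch25h were lowest, at -1.43 and -0.84. Under both normexp settings 3 of the 17 were at least 2-fold higher and 1 at least 2-fold lower, with a median of 0.23.

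Red cell genes stood far lower on the KO-labelled duodenum array, where all 6 with a value were at least 2-fold lower with a median of -3.39. Their summed level was 1532 on the WT and 88.4 on the KO-labelled array, with Hba-a2 at -4.19, Hba-a1 at -4.05, Hbb-bs at -2.53 and Slc4a1 at -2.09. Monocyte and neutrophil genes had a median of -0.65 over the 6 measured, from Elane at -1.61 and S100a9 at -1.41 to Csf3r at -0.09 and Ltf at 0.45. S100a8 and Mpo were not well above background on either duodenum array. Under both normexp settings the red cell median was -2.53 and the monocyte and neutrophil median -0.58.

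Lymphocyte genes had a median of -0.12, with Cd8a and Gzmb each at 1.24 and Jchain and Cd79a at -1.55 and -1.06. Shared leukocyte genes had a median of -0.08, from Laptm5 at -2.29 and Cyba at -1.25 to Lcp1 at 0.89 and Fcgr3 at 1.43. The dendritic and mast cell list had a median of -0.34, from Mcpt4 at -1.90 and Zbtb46 at -1.70 to Flt3 at 0.08 and Kit at 0.63. Under both normexp settings the lymphocyte median was -0.01, the shared leukocyte median -0.48 and the dendritic and mast cell median -1.18. Whether these differences touch the 10 genes was not tested.

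Between the tissues, the members split by gene and not as a group. On the WT arrays, 2 of the 10 were at least 2-fold higher in the duodenum and 3 at least 2-fold lower, against 30.2% and 23.1% of all 25223 measured genes. On the KO-labelled arrays none was at least 2-fold higher and 3 were at least 2-fold lower, against 30.3% and 25.4% of 25727 genes. The median difference between duodenum and spinal cord was 0.47 for WT and -0.04 for the KO label, where the median of all genes was 0.63 and 0.30. Relative to all genes the members' median was therefore at -0.16 and -0.34.

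Trem2 and P2ry12 were far from their spinal cord levels. From 0.63 in the WT spinal cord Trem2 was at -3.33 in the WT duodenum, 15.6-fold lower, and from 0.66 to -3.16 on the KO-labelled arrays, 14.1-fold lower. P2ry12 was at least 2.88-fold lower in the WT duodenum, where it was not well above background, and 14.9-fold lower in the KO-labelled duodenum. Both genes were thus lower in the duodenum in each genotype, but the size depended on the processing. The duodenum signals were dim, at 6.77 and 36.2 for Trem2 and 5.02 for P2ry12 on the KO-labelled array. Over 8 settings, with spike-in and within-tissue scaling left out, Trem2 was -3.96 to -1.33 for WT and -3.82 to -2.53 under the KO label. P2ry12 was -3.89 to -0.93 under the KO label.

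Cx3cr1 was also lower in the duodenum, with a difference of -1.91 on the WT arrays and -0.92 on the KO-labelled ones. Its second probe was at least 4.50-fold lower on the WT arrays and at -1.04 on the KO-labelled ones. Tmem119 was at 0.42 between the WT tissues and at -1.29 between the KO-labelled ones. Relative to the median of all genes on this scale Tmem119 was at -0.21 and -1.59, below that median in both genotypes. Over 9 settings, with spike-in scaling left out, the relative value was -0.21 to 0.15 for WT and -1.63 to -1.41 under the KO label. Its side of the median on the WT arrays therefore depended on the processing. These tissue differences use the same 4 arrays as the genotype differences above and carry the same values in another order.

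The complement chains and Aif1 were on the other side. C1qb was 1.26 higher in the WT and 0.60 higher in the KO-labelled duodenum, C1qc 0.88 and 0.55, and C1qa 0.47 in both. Aif1 was 1.20 and 0.81 higher. By its brightest probe, Csf1r was just under 2-fold higher in the WT duodenum, at 1.99-fold, and 1.36-fold higher under the KO label. Another Csf1r probe was at 1.47 and 1.17, but the dimmest was at -0.60 and -0.35, so the direction depended on the probe. Over 8 settings, with spike-in and within-tissue scaling left out, Csf1r was 0.12 to 1.22 for WT. Under the KO label it was -0.17 to 0.71. These values are on a scale where the median gene was itself higher in the duodenum, so C1qa lay below that median on the WT arrays and C1qb above it in both genotypes.

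**Figure D5:**
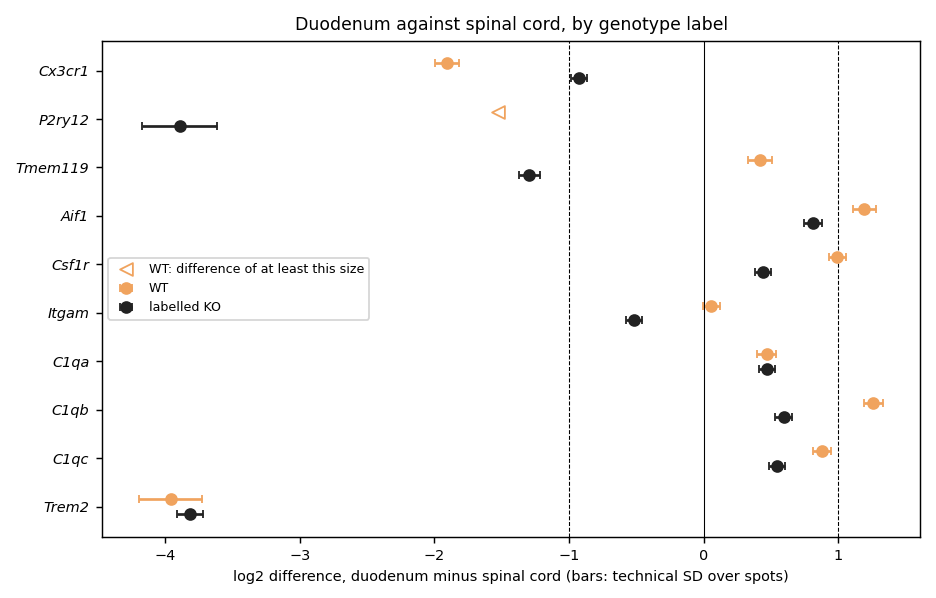
Difference between duodenum and spinal cord (x axis, log2) for each gene (y axis) on the WT arrays (orange) and the KO-labelled arrays (black), with the technical SD as the bar, 2-fold as dashed lines and an open triangle where the difference is at least that large. Trem2 lies at -3.96 and -3.82, the C1q chains and Aif1 lie right of 0, and Tmem119 changes side of 0. The median of all genes was at 0.63 on the WT and 0.30 on the KO-labelled arrays.

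The medians of the partner and other macrophage lists lay higher in the duodenum than that of the members. Of the 22 partners, 13 were at least 2-fold higher and 2 at least 2-fold lower in the WT duodenum, and 11 and 3 under the KO label, with medians of 2.08 and 1.15. The differences included Runx1 at 4.67 and Hcst at 4.61 in WT, C1s1 at 3.34 and Irf8 at 3.19 under the KO label, and Csf1 at -2.31 and -1.86. Of the 19 other macrophage genes, 9 were at least 2-fold higher and 1 at least 2-fold lower in WT, and 9 and 2 under the KO label, with medians of 1.90 and 1.13. The list was led by Ms4a7 at 5.93 and 4.31, while F13a1 was at -3.54 under the KO label. Of the 18 other microglia genes, 5 were at least 2-fold higher and 3 at least 2-fold lower in WT, and 5 in each direction under the KO label. Slc2a5 was 7.65 and 7.87 higher, Sall1 was at -4.52 under the KO label and Rgs10 at -1.14 in WT. Slc2a5 is the fructose transporter of the small intestine as well as a microglia gene.

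The profile over the 4 arrays was most like the members' median for Naxe, Lin54, Mad2l1, Kat14 and Slc25a22 among 12016 genes measured on every array. The root mean square distance from that median was 0.019 to 0.026 on the log2 scale for these 5 genes. Among the members, C1qc was closest, at 0.11, and Trem2 farthest, at 2.20. The distance rests on 4 arrays, and the members themselves lay farther from their median than these 5 genes did.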

How the data were processed

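The authors labelled total RNA (integrity number above 7.0) with Cy3 and scanned 1-colour Agilent arrays. Signal intensity was deposited as written by Agilent Feature Extraction 11.5.1.1, per the file headers, already background-subtracted, and a table of log2 values was deposited by the authors as well. A rebuilt quantile normalization of the 4 arrays differed from that table by a median of at most 0.00226, and the table's columns have medians of 5.11 to 5.12, so they are not centred on 0. Arrays were not averaged or pooled.

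From the intensities, controls and outlier-flagged spots were removed, the spots of a probe were averaged, and log2 values were set relative to their array's 75th percentile (Python 3.11.15, numpy 2.4.6, pandas 2.3.3). Accessions were named through RefSeq: 25868 of 26391 probes with an NM accession matched, and 15 probes belong to the 10 genes. Where a probe was not well above background on 1 array, the difference is a bound against the lowest level seen well above background there. A difference of 2-fold was counted, since 1 array a group allows no test. Technical spread came from 399 probes printed at 10 spots, taken from the 50 nearest in brightness. The difference and bound calculation was tested on simulated data. Alternatives used R 4.3.3 and limma 3.58.1, with normexp at an offset of 50. The number of arrays limits the precision.

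The members, the lists and the tests were chosen with earlier results of these data known. All members and the partner genes measured are named, and from each other list the 2 highest and 2 lowest genes of a comparison, for KO against WT and in part between tissues, except that a few values of single genes are not reported here. Cd68, Clec7a, Ly6c2, Ly6g, Itgae and Ahsp were not analysed here.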

Additional observations from a re-analysis of the deposited data

Results flagged for a closer look

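Several differences between the KO-labelled and the WT array ran one way in the spinal cord and the other way in the duodenum. With 1 array a group the difference between tissues was not tested. Tmem119 was at 0.42 in the spinal cord and -1.30 in the duodenum, a difference between tissues (duodenum minus spinal cord) of -1.71 on the log2 scale. Aif1 was at 0.29 and -0.10, a difference between tissues of -0.39, and its duodenum value had a technical SD of 0.088. Relative to the median of all genes, Aif1 was at 0.33 in the spinal cord and 0.02 in the duodenum, so it was not opposite on that measure.

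The medians of 7 lists were opposite in the same manner. The macrophage list was at 0.67 in the spinal cord and -0.29 in the duodenum (a difference of -0.96), the partners at 0.35 and -0.22 (-0.57), and the monocyte and neutrophil list at 1.08 and -0.65 (-1.73). The dendritic and mast cell list was at 0.06 and -0.34 (-0.40), the lymphocyte list at 0.96 and -0.12 (-1.08), the shared leukocyte list at 0.58 and -0.08 (-0.66), and the red cell list at 1.21 and -3.39 (-4.61). Under normexp with all local backgrounds kept, 5 of these medians were below 0 in the spinal cord too: the macrophage list at -0.84, the partners at -0.22, the dendritic and mast cell list at -1.25, the lymphocyte list at -0.998 and the shared leukocyte list at -0.15. Relative to the median of all genes in the duodenum, the shared leukocyte list was at 0.04 and the lymphocyte list at -0.0023.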

How the results depend on the processing

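Leaving out a replicate was not possible with 1 array a group. No paired analysis was possible either, since each group has 1 array and the sample titles name no mouse.

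The members' median in the duodenum (-0.28) was -0.028 under normexp, with or without flagged local backgrounds replaced, -0.10 under quantile normalization of the 4 arrays and in the deposited table, -0.11 under quantile normalization within each tissue, -0.40 without a filter on dim probes and 2.73 when scaled on 8 spike-in probes, where the median of all genes was 2.89. The count of 2 genes there became 9 with spike-in scaling, 4 at 1.5-fold and 3 with probes averaged. It was also 2 under both normexp settings, but with other genes: Cx3cr1 (0.77) was no longer past 2-fold and Trem2 (-1.07) was. In the spinal cord the median (0.05) was 0.20 under normexp, 0.11 with probes averaged per gene and -0.12 with spike-in scaling, and the count stayed at 0 under all alternatives. Between tissues in WT, the median (0.47) was 0.37 under normexp, 0.26 with flagged backgrounds replaced, 0.29 under quantile normalization and in the deposited table, -2.21 within tissues, 0.69 with median centring, 0.62 with the mean of probes and -4.57 with spike-in scaling. The count of 5 became 2 under normexp, 3 with flagged backgrounds replaced, and 10 within tissues and with spike-in scaling. Under the KO label the median (-0.04) was -0.17 under both normexp settings, -0.63 under quantile normalization and in the deposited table, -2.61 within tissues, 0.24 with median centring, -0.13 with the mean of probes and -1.91 with spike-in scaling. The count of 3 became 1 under both normexp settings, 5 under quantile normalization and in the deposited table, 10 within tissues and with spike-in scaling, and 6 at 1.5-fold. Normalizing within tissues sets each tissue on its own scale, and the cause of the other changes was not tested.

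Of 531 alternative values for single members and list medians, 276 moved by less than the technical SD and 250 by more in the same direction or from a value under 2-fold. The other 5 reversed: Tmem119 in the duodenum was 1.70 with spike-in scaling, where all genes had 2.89. Between tissues in WT, Aif1 was -1.47 and -3.84 and C1qb -1.43 and -3.78, within tissues and with spike-in scaling. Changes of sign from a value under 2-fold were not counted as reversed. Among them, the lymphocyte median in the spinal cord went from 0.96 to -0.998 under normexp with all local backgrounds kept. Under the same setting, P2ry12 in the spinal cord went from 0.35 to -0.55. Over 9 settings, the main one included and spike-in scaling left out, Cx3cr1 in the duodenum was 0.77 to 1.86 and Tmem119 -1.30 to -1.11. Over the same settings Trem2 ran from -1.07 to 0.20, Csf1r from -0.52 to 0.05 and C1qc from -0.28 to 0.22. The dim signals of the WT duodenum limit P2ry12 and Trem2 there.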
